A study of Mus musculus with 4 samples.

Results

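Very broad accessible intervals at the ends of genes were described in chromatin of mouse fetal ovarian cells enriched for germ cells. They were 298 intervals of the Gata2WT peak list that were at least 1800 bp wide and lay no more than 1 kb from an end of exactly 1 protein-coding gene, whether its first or its last base. Peak entries with the same start and end were joined to 1 interval, and each entry was counted as 1 summit. The 298 intervals were 0.603% of the 49394 Gata2WT intervals on the 19 autosomes and X, and 2.42% of the 12330 that reached exactly 1 coding gene end. Width in the Gata2WT list chose them, so Gata2WT widths and summit numbers are given as a description. A further 58 intervals of that width reached at least 2 coding gene ends and 93 reached none, and these were not included.

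The study made 4 ATAC-seq libraries from ovaries of female C57BL/6J embryos at E14.5, where E stands for embryonic day, 2 labelled Gata2WT and 2 labelled Gata2cKO. The embryos came from Gata2flox/flox mothers and Gata2flox/+ Prdm1-Cre fathers, so each embryo inherited at least 1 floxed Gata2 allele. The sources used here do not give which alleles the Gata2WT embryos carried or whether they carried Cre. Prdm1, whose regulatory sequence drives the Cre recombinase, is a gene of the germ cell lineage, and GATA2 is a zinc finger transcription factor. Trypsin-dissociated ovaries were enriched for germ cells on anti-SSEA1 beads, and about 10000 cells went into a library, although the labels name the cell type as ovarian cells.

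In ATAC-seq the Tn5 transposase cuts and tags DNA that is not wrapped in nucleosomes or packed away. Promoters rich in CpG dinucleotides, called CpG islands, are open in most cell types, and their open stretch usually ends a short way into the gene. Long open or lightly methylated stretches are best known from the promoters of developmental regulators, such as homeobox, SOX and forkhead factors and receptors of signalling pathways, many of which are held by Polycomb in cells that do not use them.

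The annotated promoters of 6 genes that the results below turn on are shown to make the CpG content visible. Foxl2 encodes a forkhead factor of pregranulosa cells, Jun a subunit of the AP-1 transcription factor, Fzd7 a WNT receptor, Kdm6a a histone H3K27 demethylase, Cxcr4 the chemokine receptor that guides migrating germ cells, and Twist2 a bHLH factor of mesenchyme. Each sequence is the 250 bases before the gene start from RefSeq (GRCm38.p6), read 5′ to 3′ on the strand of the gene, and all 6 lay inside the Gata2WT interval. Capitals mark CpG dinucleotides.
Foxl2 (chr9:98955357-98955606, plus strand): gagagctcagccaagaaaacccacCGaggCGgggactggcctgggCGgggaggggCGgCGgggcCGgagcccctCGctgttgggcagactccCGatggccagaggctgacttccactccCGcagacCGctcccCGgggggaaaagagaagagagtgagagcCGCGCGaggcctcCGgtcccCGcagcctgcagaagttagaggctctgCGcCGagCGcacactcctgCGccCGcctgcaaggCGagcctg
Jun (chr4:95052223-95052472, minus strand): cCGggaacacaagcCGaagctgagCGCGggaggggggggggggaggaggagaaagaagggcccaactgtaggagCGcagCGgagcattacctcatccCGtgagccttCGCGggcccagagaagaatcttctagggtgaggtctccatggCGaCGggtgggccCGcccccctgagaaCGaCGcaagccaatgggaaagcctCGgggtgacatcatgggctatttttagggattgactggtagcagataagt
Fzd7 (chr1:59481897-59482146, plus strand): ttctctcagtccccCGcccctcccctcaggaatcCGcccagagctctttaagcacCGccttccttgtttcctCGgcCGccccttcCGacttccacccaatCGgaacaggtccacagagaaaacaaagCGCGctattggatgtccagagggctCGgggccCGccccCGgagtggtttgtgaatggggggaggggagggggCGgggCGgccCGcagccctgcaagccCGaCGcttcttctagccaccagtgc
Kdm6a (chrX:18162325-18162574, plus strand): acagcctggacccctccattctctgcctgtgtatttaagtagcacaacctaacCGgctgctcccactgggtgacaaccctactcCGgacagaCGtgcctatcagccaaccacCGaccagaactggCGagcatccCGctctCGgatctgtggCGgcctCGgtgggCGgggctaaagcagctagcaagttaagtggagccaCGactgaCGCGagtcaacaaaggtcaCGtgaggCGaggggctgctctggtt
Cxcr4 (chr1:128592300-128592549, minus strand): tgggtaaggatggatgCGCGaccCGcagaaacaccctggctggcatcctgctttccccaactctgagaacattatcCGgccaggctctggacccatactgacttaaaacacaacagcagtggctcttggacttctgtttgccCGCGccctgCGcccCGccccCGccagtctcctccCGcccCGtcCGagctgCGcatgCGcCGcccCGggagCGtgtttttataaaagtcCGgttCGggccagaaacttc
Twist2 (chr1:91801211-91801460, plus strand): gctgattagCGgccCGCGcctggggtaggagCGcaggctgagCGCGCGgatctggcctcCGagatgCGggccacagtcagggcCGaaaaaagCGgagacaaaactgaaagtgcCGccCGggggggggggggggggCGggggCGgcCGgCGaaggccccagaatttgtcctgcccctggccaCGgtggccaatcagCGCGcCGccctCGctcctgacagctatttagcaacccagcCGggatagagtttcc
The 250 bases held 22 CpG in Foxl2, 15 in Jun, 17 in Fzd7, 15 in Kdm6a, 19 in Cxcr4 and 23 in Twist2.

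The files held 1 combined peak list per genotype. No replicate error could be given, no test between genotypes was made, and the fold enrichments and q-values of the 2 lists, which are the authors' own for each peak, were not scaled to each other. The 95% Wilson intervals below cover counting error only. The lowest local background, that of the genome, was 2.19 fragments for Gata2WT and 2.01 for Gata2cKO. Over all intervals, which passed a threshold in each list, the median summit had 19 fragments in both and the median widths were 546 and 542 bp. At intervals at exactly 1 coding gene end the Gata2cKO values were lower: the median summit pileup was 57 fragments in Gata2WT and 48 in Gata2cKO, and the median local background 6.24 and 5.29. Of the markers fixed for the check of cell type, all 8 germ cell genes had a gene-end interval in both lists. So did 8 of 8 markers of supporting cells in Gata2WT and 7 in Gata2cKO, 3 and 2 of 6 interstitial markers, 3 and 3 of 6 endothelial markers, and 2 and 2 of 7 markers of macrophages and erythroid cells. Among all 21631 protein-coding genes, 10948 had a Gata2WT interval at exactly 1 coding gene end. The marker counts are therefore not read as showing which cells were present. The part of cells other than germ cells in the results below was not tested. The targeted gene, Gata2, was overlapped by 2 intervals covering 2441 bp of its 13142 bp in Gata2WT, and by 1 interval covering 1705 bp in Gata2cKO.

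The very broad intervals were 1800 to 3288 bp wide, with a median of 1954 bp and quartiles of 1868 and 2140 bp. All Gata2WT intervals at exactly 1 coding gene end had a median of 906 bp. The threshold fell within a continuous range of widths. Amn and Hs6st2 at 1801 bp and Pwwp2b at 1800 bp lay just inside it, while Hipk1 and Man1a at 1799 bp and Lingo2 at 1798 bp lay just outside. Hipk1 and Lingo2 held 3 summits and Man1a held 1.

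Very broad intervals did not have the highest summits of all. The highest summit of a member had a −log10 q of 5.22 to 144, with a median of 35.8, which was below the medians of 43.1, 48.5 and 41.8 in the classes of 600 to 1200, 1200 to 1500 and 1500 to 1800 bp. The summit pileup, the number of fragments at the summit as solved from the authors' values, was 21 to 267 with a median of 78, between the medians of 69, 83 and 79 in those classes. The lowest −log10 q belonged to Slc18a3, which encodes the vesicular acetylcholine transporter, at 5.22, and the highest to Ankhd1 at 144; both were chosen after their values were seen.

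The members held 926 summits, 1 to 6 each with a median of 3. There were 118 members with 3 summits, 81 with 4, 76 with 2, 17 with 5, 5 with 1 and 1 with 6. Neighbouring summits lay 99 to 1311 bp apart over 628 spacings, with a median of 525 bp and quartiles of 385 and 718 bp. The summits were uneven: the lowest summit of a member had a median −log10 q of 8.54, against 35.8 for the highest.

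The widest interval, 3288 bp, lay at Epha4, an ephrin receptor. It ran from 77513497 to 77516784 on chromosome 1 and held 5 summits, the highest of which had a −log10 q of 16.4 and stood 1343 bp upstream of the start. Adgrl2, a latrophilin adhesion receptor, followed with 3264 bp and 4 summits on chromosome 3 (148987507 to 148990770). Tril, an accessory protein of Toll-like receptor signalling, had 3009 bp and 4 summits on chromosome 6 (53818098 to 53821106), with the highest 2284 bp into the gene. Tbl1x, a subunit of the NCoR corepressor complex, had 2937 bp and 5 summits on X (77509174 to 77512110). The interval at Jun covered 2880 bp of chromosome 4 (95050571 to 95053450).

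Among the other members of the 12 widest, Foxo1, a forkhead factor downstream of insulin signalling, had 2724 bp and Klhl29 2615 bp with 6 summits, the count of 6 found at no other member. Adra2c, an adrenergic receptor, had 2600 bp, Tpbg, a trophoblast surface glycoprotein, 2524 bp, Irf2, an interferon regulatory factor, 2522 bp and Foxl2 2518 bp. The genes of the 12 widest included receptors, transcription factors and a corepressor subunit.

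Where the strand was known, nearly all of the gene ends were gene starts. A strand and a start were in the RefSeq promoter table for 221 of the 298 genes. A start lay inside or within 1 kb of the interval in 210 of them (95.0%, Wilson 91.3 to 97.2%), and inside it in 197 (89.1%, Wilson 84.4 to 92.6%). Among all Gata2WT intervals at exactly 1 coding gene end, 73.2% held a start. The share was 29.1% for intervals under 600 bp, 82.8% at 600 to 1200 bp, 91.5% at 1200 to 1500 bp and 90.1% at 1500 to 1800 bp, so the share among the members was above that of narrow intervals and close to the next classes down.

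At 5 of the 221 members with a known strand the interval reached the 3′ end of the gene's annotated span and not its 5′ end, which was 2.26% against 11.0% of all such intervals. They were Sema6c, a transmembrane semaphorin, Bad, a BH3 protein of the cell death pathway, Amn, Tmem191c and Gm45915. At Tmem191c an annotated start inside the span of the gene also lay in the interval. Both ends of the gene were reached at 13 of the 298 members (4.36%). The 8 of them with a known strand were the short genes Adra2c, Foxl2, Socs1, Mid1ip1, H1f10, Ptf1a, Slc18a3 and Ascl2. The linker histone gene H1f10, 1062 bp long, lay whole inside its interval. Genes of members had a median length of 47472 bp, against 25893 bp for all intervals at exactly 1 gene end, 35456 bp in the class of 1200 to 1500 bp and 56818 bp in the class of 1500 to 1800 bp.

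The intervals ran further into the gene than away from it. In the 197 members with a start inside, a median of 731 bp lay upstream of the start (28 to 2053 bp) and 1275 bp downstream (221 to 2727 bp). The longer side was downstream in 143 of 197 (72.6%, Wilson 66.0 to 78.3%). Over all intervals at exactly 1 gene end with a start inside, the medians were 400 and 569 bp and the downstream share was 69.6%, close to that of the members.

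The highest summit often stood away from the start. It lay within 250 bp of the start in 95 of 197 members (48.2%, Wilson 41.3 to 55.2%), against 83.0% of all intervals with a start inside, and over 1 kb away in 22. At Foxo3, the forkhead factor that keeps primordial follicles dormant, the highest summit (−log10 q 112) stood 1293 bp upstream of the start, while summits at 58 bp downstream and 226 bp upstream had values of 10.6 and 16.0. In the Gata2cKO list the same 3 summits stood 1315 bp upstream, 56 bp downstream and 217 bp upstream, with values of 103, 13.7 and 8.69. At least 2 annotated starts lay inside the interval at 26 of the 221 genes (11.8%, against 6.27% of all). An end of a noncoding gene lay within 1 kb of 76 of the 298 members (25.5%, Wilson 20.9 to 30.7%), against 16.1% of all. Members were chosen for width, with a median of 1954 bp against 906 bp for all intervals. A wider interval leaves more room for a distant summit, a further start or a noncoding gene end. The shares in this paragraph were not matched for width.

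**Figure D1:**
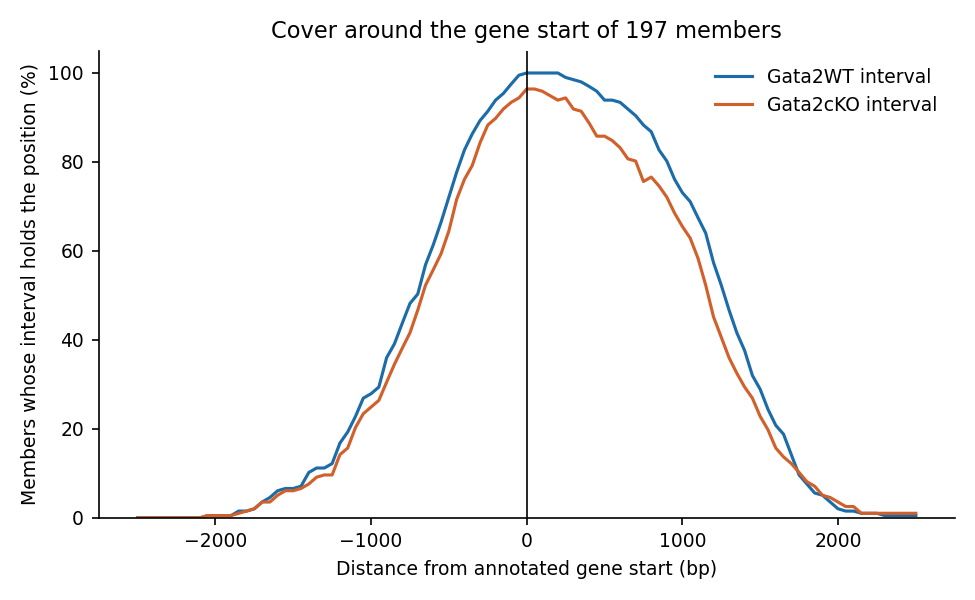
Share of the 197 members with a gene start inside the Gata2WT interval (vertical axis, %) whose Gata2WT or Gata2cKO intervals hold each position around the start (horizontal axis, bp, transcription to the right). At 1000 bp downstream 73.1% of Gata2WT and 65.5% of Gata2cKO intervals hold the position, against 27.9% and 24.9% at 1000 bp upstream.

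The profile around the start had a similar shape in both lists. It was drawn for members chosen in Gata2WT and the Gata2cKO intervals that overlap them, so the likeness and the lower Gata2cKO shares follow in part from that choice. At the start itself 100% of the 197 members were covered in Gata2WT, by choice, and 96.4% in Gata2cKO. At 500 bp downstream the shares were 93.9% and 85.8%, and at 500 bp upstream 72.1% and 64.5%. At 1500 bp downstream they were 28.9% and 22.8%, and at 2000 bp downstream 2.03% and 3.55%.

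Promoters of the members were rich in CpG, a property the choice of members did not use. In the 300 bases from 250 before to 50 after the outermost start, the 221 promoters had a median GC content of 67.0% and a median of 26 CpG. These bases were counted whether or not they lay in the interval. An annotated start lay inside it at 197 of the 221 genes, and at 11 none lay within 1 kb. The median ratio of observed to expected CpG of the 221 promoters was 0.81 (quartiles 0.665 and 0.928). Promoters of all 8626 genes with a Gata2WT interval at exactly 1 coding gene end had 61.0% GC, 20 CpG and a ratio of 0.739, and all 17274 promoters of the table had 56.3%, 14 and 0.586. The 513 genes of the class of 1500 to 1800 bp had 67.7%, 27 and 0.816, values close to those of the members.

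**Figure D2:**
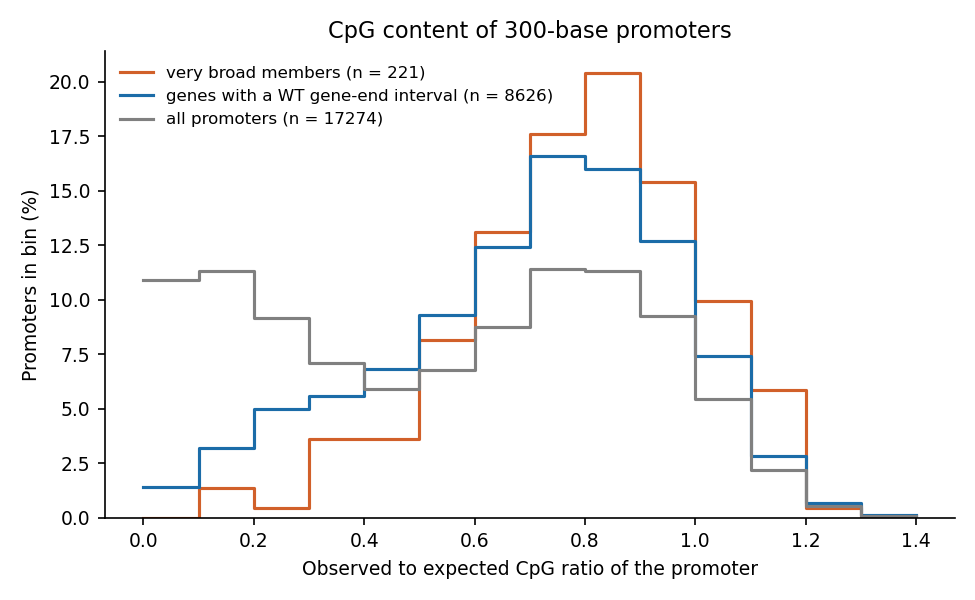
Distribution of the observed to expected CpG ratio (horizontal axis) in 300-base promoters, as the share of promoters in each bin of 0.1 (vertical axis, %), for 221 members, 8626 genes with a Gata2WT gene-end interval and all 17274 promoters. Of the members, 82.8% have a ratio of at least 0.6, against 68.7% and 49.0%.

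A ratio of at least 0.6 was found in 183 of the 221 members (82.8%), in 78.9% of the next class, in 68.7% of genes with an interval at exactly 1 gene end and in 49.0% of all promoters. Single members ranged from 0.112 at Vav2 to 1.21 at Sinhcaf, both chosen after their values were seen. The ratio was 0.594 at Jun, 0.565 at Epha4, 0.708 at Foxl2 and at Kdm6a, 0.727 at Fzd7, 0.767 at Cxcr4, 0.803 at Twist2 and 0.834 at Foxo3.

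Short motifs were counted in the same 300 bases on both strands, as letters and not as binding sites. GATA was in 67 of the 221 promoters (30.3%), against 43.9% of genes with an interval at exactly 1 gene end, 53.5% of all promoters and 33.9% of the next class. The longer AGATAA, which contains GATA, was in 3.17%, 6.40% and 9.99% of members, such genes and all promoters, and Jun was among the 7 members with it. GGGCGG, the core of the SP factor motif, was in 177 members (80.1%), against 65.1%, 46.9% and 74.3% in the next class. CCGGAAG, the ETS motif, was in 12 members (5.43%), against 14.3%, 12.1% and 8.19%. CCAAT was in 33.9% of members (38.2% of genes with such an interval and 39.6% of all), TATAAA in 5.88% (7.32% and 13.4%), CACGTG in 5.88% (9.87% and 8.01%), GCATGCG in 2.71% (6.26% and 4.54%) and TGACGTC in 4.52% (5.26% and 4.03%). GGGCGG holds no A or T and TATAAA no G or C, and GC content differed between these sets of promoters as given above.

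The member genes fell unevenly over 21 gene lists, which were chosen with earlier results of these data known. Of the 10948 genes with a Gata2WT interval at exactly 1 coding gene end, 298 (2.72%) had a very broad one, and each list is read against that share as a description. The list of developmental homeobox, T-box and forkhead factors, which also holds SOX genes, had 7 of 45 (15.6%). They included Foxo1, Tbx18, Foxo3 and Foxn2, and the SOX genes Sox11 and Sox4. The list of BMP, WNT, Notch and retinoic acid signalling had 6 of 39 (15.4%), namely Fzd7, Dll1, Smad3, Fzd1, Bmp7 and Bmpr2.

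**Figure D3:**
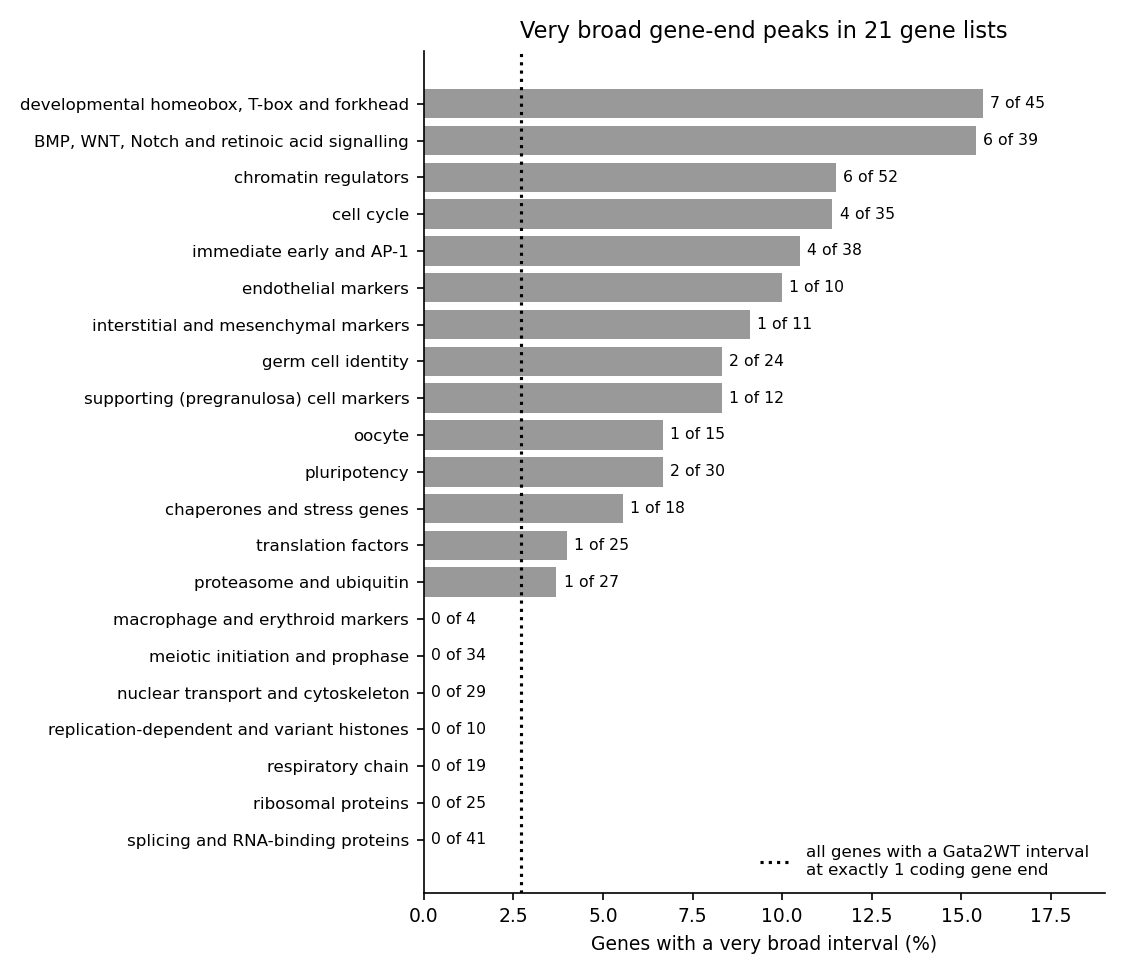
Share of the genes of 21 lists that have a very broad Gata2WT interval (horizontal axis, %), among list genes with a Gata2WT interval at exactly 1 coding gene end, with the counts beside the bars. The dotted line is the share over all 10948 such genes, 2.72%; the lists of developmental factors and of signalling genes reach 15.6% and 15.4%, and 7 lists have none.

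Chromatin regulators had 6 of 52 (11.5%): the architectural proteins Hmga2 and Hmga1, the demethylase gene Kdm6a, the insulator protein Ctcf, the methylcytosine dioxygenase Tet1 and the Polycomb methyltransferase Ezh2. Cell cycle genes had 4 of 35 (11.4%), Ccne2, Cdk6, Cdkn2c and Wee1. Immediate early genes had 4 of 38 (10.5%), Jun, Id1, Dusp4 and Socs3. No member came from the 34 meiotic genes, 25 ribosomal protein genes, 41 splicing genes, 29 genes of nuclear transport and cytoskeleton, 19 respiratory chain genes, 10 histone genes or 4 macrophage and erythroid genes with such an interval. At the share of 2.72% over all genes, lists of these sizes would each hold few or no members. The absences are therefore not read as a result about these lists. The remaining lists had 1 or 2 members each.

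Germ cell, pluripotency and oocyte genes gave few members, at shares above 2.72% that rest on 1 or 2 genes. Germ cell identity had 2 of 24 (8.33%), Cxcr4 and Sox17, pluripotency 2 of 30 (6.67%), with Mycn among them, and the oocyte list 1 of 15 (6.67%), Foxo3. Markers of other ovarian cells were also present: Foxl2 of supporting cells (1 of 12), Maf of interstitial cells (1 of 11) and Sox17, which is also on the endothelial list (1 of 10). Whether these intervals came from germ cells or from other cells in the preparation was not tested.

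Genes were also grouped by the stem of the symbol, after the values were seen. Frizzled proteins are the cell surface receptors of WNT ligands, and 6 of the 9 with a Gata2WT interval at exactly 1 coding gene end had a very broad one (66.7%), the highest share among stems with at least 3 members. Fzd10 was 2251 bp wide in Gata2WT and 1876 bp in Gata2cKO, Fzd7 2176 and 1857 bp, and Fzd8 2121 and 1013 bp. Fzd1 was 1972 and 1898 bp wide, Fzd5 1884 and 1781 bp, and Fzd2 1876 and 1836 bp. The widest Gata2cKO interval was narrower at 241 of all 298 members (80.9%), which were chosen for width in Gata2WT. Among the Frizzled members it was narrower at all 6, by a small amount at Fzd1, Fzd2 and Fzd5 and the most at Fzd8. Fzd8 was met by 2 Gata2cKO intervals. The 3 others of the 9 Frizzled genes were narrower in both lists, with 1353 and 1199 bp at Fzd9, 1221 and 1130 bp at Fzd3 and 1118 and 1094 bp at Fzd6.

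SOX factors, transcription factors with an HMG box, had 4 of 16. Sox3 was 2252 bp wide in Gata2WT and 2116 bp in Gata2cKO, Sox11 1944 and 1993 bp, Sox17 1833 and 1963 bp, and Sox4 1825 and 1820 bp. The Gata2cKO interval was the wider at Sox11 and Sox17 and the narrower at the other two. Solute carriers gave 9 of 233 and zinc finger genes with the stem Zfp 3 of 282.

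All 298 members were overlapped by at least 1 Gata2cKO interval (100%, Wilson 98.7 to 100%). The share among all Gata2WT intervals at exactly 1 coding gene end was 92.2%, and it was already 99.8% at 1200 to 1500 bp and 100% at 1500 to 1800 bp. Gata2cKO intervals covered 47.0 to 100% of the bases of a member, with a median of 93.0% and quartiles of 83.3 and 97.5%. That median was 93.1% and 93.0% in those classes. The cover was complete at 28 members and under 75% at 38.

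The widest overlapping Gata2cKO interval was narrower than the Gata2WT interval at 241 members, equal at 2 and wider at 55. The ratio of the widths was 0.277 to 1.14, with a median of 0.94 and quartiles of 0.788 and 0.989, and medians of 0.957, 0.948 and 0.944 in the classes of 600 to 1200, 1200 to 1500 and 1500 to 1800 bp. It was narrower by at least 1.25 times at 77 members (25.8%, Wilson 21.2 to 31.1%), against 15.7% of the 11371 Gata2WT intervals at exactly 1 gene end that met a Gata2cKO interval. It was wider by at least 1.25 times at 0 of 298, for which the Wilson interval reaches 1.27%, against 7.53% of the same 11371. Only the widest Gata2cKO interval was measured, so a member met by several of them more readily counts as narrower. A single Gata2cKO interval met 247 members, and it was narrower by at least 1.25 times at 27 of these. The widest Gata2cKO interval was itself at least 1800 bp wide at 158 members (53.0%, Wilson 47.4 to 58.6%).

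Because the members were chosen for their width in Gata2WT, part of this follows from the choice. The same measures were therefore taken from the 214 Gata2cKO intervals of at least 1800 bp at exactly 1 coding gene end. There the widest overlapping Gata2WT interval was narrower by at least 1.25 times at 32 (15.0%, Wilson 10.8 to 20.3%), against 6.94% of the 11370 Gata2cKO intervals at exactly 1 gene end that met a Gata2WT interval. It was wider by that factor at 2 (0.935%), against 16.3% of the same intervals. The median ratio of Gata2WT to Gata2cKO width was 0.995, the median cover 97.3%, and Gata2WT intervals of at least 1800 bp met 156 of the 214 (72.9%). Chosen in either list, intervals were therefore seldom wider by 1.25 times in the other, and were more often narrower by that factor when chosen in Gata2WT, as were intervals of all widths. The lower pileups and backgrounds of the Gata2cKO list moved with this difference, and their part was not tested.

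**Figure D4:**
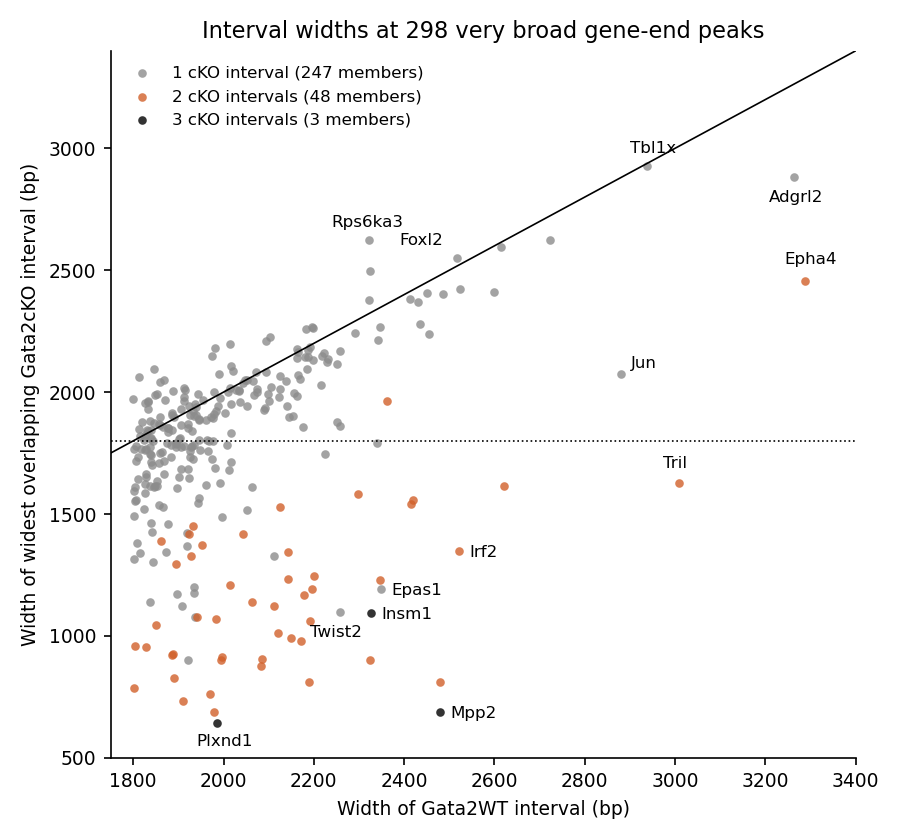
Width of each of the 298 Gata2WT intervals (horizontal axis, bp) and of the widest Gata2cKO interval that overlaps it (vertical axis, bp), coloured by the number of overlapping Gata2cKO intervals. The solid line marks equal width and the dotted line 1800 bp; members met by 1 interval mostly lie near the solid line, and those met by 2 or 3 lie mostly below 1800 bp.

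The larger differences in width were mostly divisions. A single Gata2cKO interval met 247 members, 2 met 48 and 3 met 3, so 51 members (17.1%, Wilson 13.3 to 21.8%) were divided, against 1.09% of all Gata2WT intervals at exactly 1 gene end. The share grew with width: 0.261% at 600 to 1200 bp, 1.71% at 1200 to 1500 bp and 5.43% at 1500 to 1800 bp. Of the 77 members narrower by at least 1.25 times, 50 were divided and 27 were not. Where a single interval met the member, the median ratio of widths was 0.959.

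The gaps at divided members were short beside their width. The largest gap between the Gata2cKO intervals at a divided member was 247 to 778 bp, with a median of 326 bp, and at 44 of the 51 the Gata2cKO intervals together spanned at least 1800 bp. The smallest gap left between neighbouring intervals was 255 bp for Gata2WT and 245 bp for Gata2cKO. With Gata2cKO gaps of less than 255 bp closed, an alternative chosen after seeing the data, 40 members (13.4%) were divided. Turned round, 26 of the 214 wide Gata2cKO intervals (12.1%, Wilson 8.43 to 17.2%) were met by at least 2 Gata2WT intervals, against 0.880% of all. The 2 sets are not independent, as 156 of the 214 overlap a member, and a difference between the 2 directions was not tested.

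Division was more frequent at low pileups. Of the 50 members whose summit pileup in Gata2WT was under 50 fragments, 16 (32.0%) were divided and the median ratio of widths was 0.84. Of the 80 with a pileup of at least 100, 7 (8.75%) were divided and the median ratio was 0.957. The median Gata2WT widths of these 2 sets were 1973 and 1974 bp, but the upper quartiles were 2288 and 2093 bp and the widest 3288 and 2880 bp, so the set with low pileups held wider intervals at its upper end. The parts of pileup and width were not separated.

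Mpp2, Insm1 and Plxnd1 were each met by 3 Gata2cKO intervals. Mpp2, a scaffold protein of the MAGUK family, had 1 Gata2WT interval of 2479 bp on chromosome 11 (102087118 to 102089596) with summits 874 bp upstream, 139 bp downstream and 1213 bp downstream of the start, at −log10 q of 8.41, 6.32 and 14.8. Its Gata2cKO intervals were 405, 289 and 687 bp wide, with summits 975 bp upstream, 129 bp downstream and 1010 bp downstream, at 6.79, 5.14 and 17.8. Each of the 3 Gata2WT summits thus had a Gata2cKO summit within 250 bp, though not all within 100 bp. Stretches between the Gata2cKO summits fell short of the threshold.

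Plxnd1, a semaphorin receptor, showed the same arrangement over 1985 bp of chromosome 6 (115993351 to 115995335). Summits 179 bp upstream, 426 bp downstream and 1321 bp downstream of the start in Gata2WT were matched within 28 bp in Gata2cKO, in intervals of 353, 312 and 644 bp. At Insm1, a zinc finger factor of neuroendocrine cells, the 2327 bp interval on chromosome 2 (146221046 to 146223372) held 5 summits, and the 3 Gata2cKO intervals together held 5 as well. They covered 73.4% of it.

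Among the widest members, Epha4 was met by Gata2cKO intervals of 456 and 2455 bp, whose 5 summits all lay within 164 bp of the 5 in Gata2WT. Tril was met by intervals of 823 and 1629 bp, with 4 summits in each list. Irf2, on chromosome 8 (46739221 to 46741742), was met by intervals of 412 and 1349 bp. Its Gata2WT summits 258 bp upstream and 1694 bp downstream of the start, at −log10 q of 16.3 and 26.1, had Gata2cKO summits 0 and 125 bp away, at 15.7 and 36.7. The summits between them, at 165 and 689 bp downstream with values of 2.0 and 7.4, were among those with none within 250 bp.

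**Figure D5:**
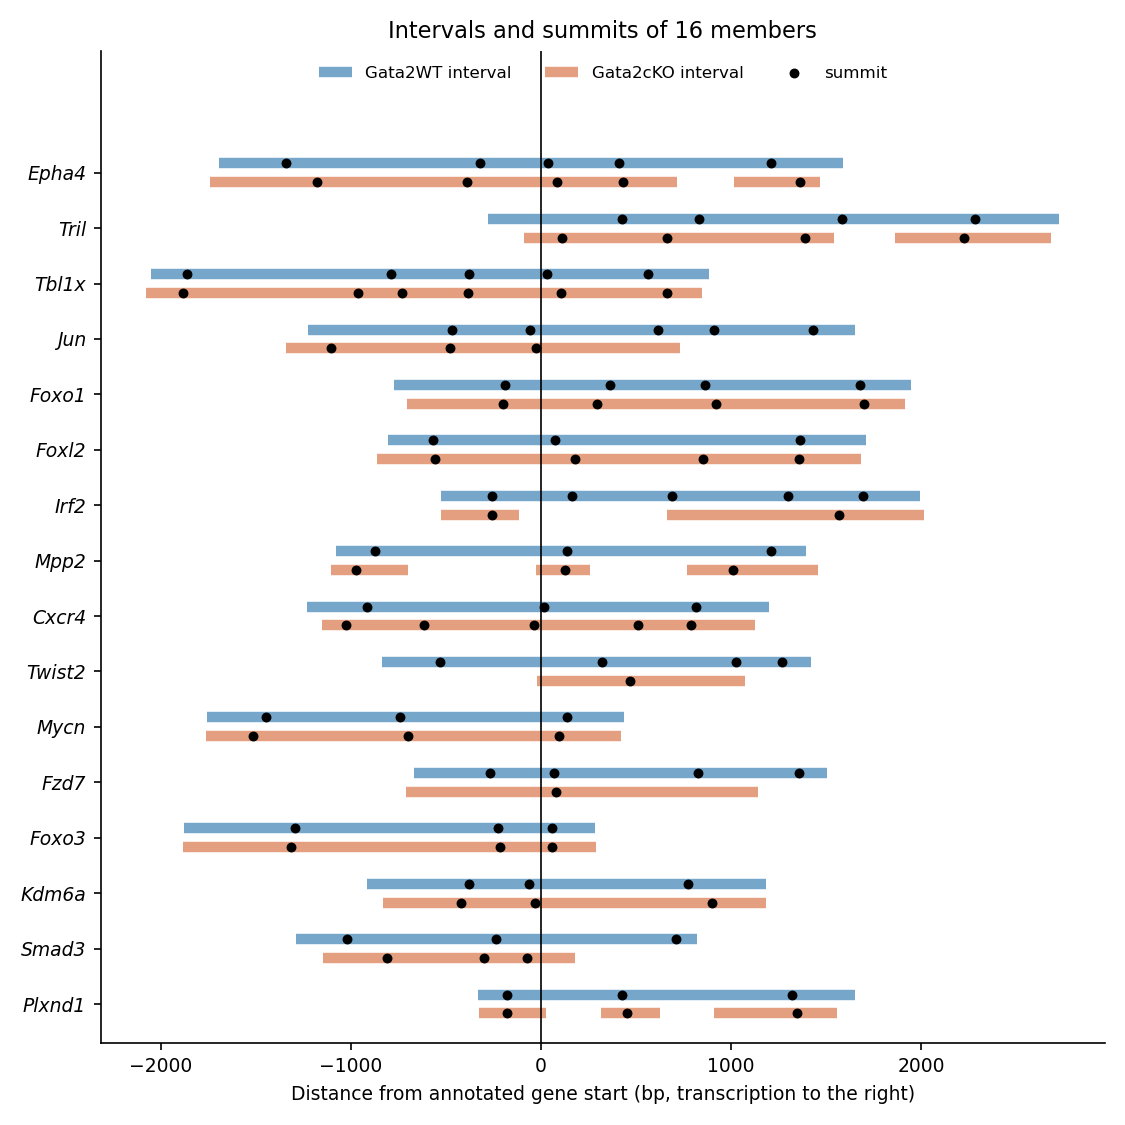
Gata2WT (blue) and Gata2cKO (orange) intervals of 16 members with their summits (black points), drawn by distance from the annotated gene start (horizontal axis, bp, transcription to the right). Foxo1, Foxo3 and Kdm6a keep nearly the same extent in both lists. Jun lacks an end in Gata2cKO, Twist2 lacks a stretch at both ends, and Mpp2 and Plxnd1 fall into 3 intervals.

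At some members the Gata2cKO interval left an end, or both ends, uncovered. The smallest share covered, 47.0%, was at 1700017B05Rik on chromosome 9 (57261007 to 57262927), where a Gata2WT interval of 1921 bp with 3 summits met a Gata2cKO interval of 903 bp with 1. At Twist2, on chromosome 1 (91800626 to 91802882), 48.6% was covered, with a stretch at each end left out. The Gata2WT summits stood 529 bp upstream and 321, 1027 and 1270 bp downstream of the start, with −log10 q of 4.57, 10.7, 2.81 and 2.85. The 1 summit of the Gata2cKO interval, 1098 bp wide, stood 468 bp downstream with a value of 9.18. The summits without a counterpart were thus the 3 lowest of the Gata2WT interval, at pileups of 17 to 20 fragments.

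Epas1, a hypoxia-inducible factor on chromosome 17 (86753211 to 86755559), had the third smallest cover, 50.8%. Its 5 Gata2WT summits had values of 54.0, 22.8, 3.22, 2.07 and 3.97 from one end to the other, and its Gata2cKO interval of 1194 bp held 3 with 39.3, 27.8 and 8.17. Those 3 lay 7, 25 and 72 bp from the first 3 of Gata2WT. Tafa2 was covered to 55.6% and was among the lowest peaks, with highest summits at a −log10 q of 7.43 (Gata2WT) and 11.8 (Gata2cKO). Nufip2, a partner of the fragile X protein, was covered to 57.6% by 2 intervals although its values were high, 73.6 and 66.9.

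At Jun the Gata2cKO interval of 2075 bp covered 68.2% of the Gata2WT interval and ended 734 bp into the gene. Gata2WT summits stood 468 and 57 bp upstream and 616, 910 and 1434 bp downstream, with −log10 q of 23.8, 52.7, 2.63, 3.94 and 3.26. The Gata2cKO summits stood 1103, 481 and 26 bp upstream, with values of 4.71, 18.1 and 23.5. The summits nearest to the start were in both lists, the 3 low downstream ones had no Gata2cKO summit within 500 bp, and the summit 1103 bp upstream was in Gata2cKO alone. Other immediate early genes differed: Id1, an inhibitor of bHLH factors, was 1994 bp wide and met by 2 Gata2cKO intervals, and Dusp4, a MAP kinase phosphatase, was 1871 and 1969 bp wide. Over the 4 immediate early members the median ratio of widths was 0.777.

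At Fzd7, on chromosome 1 (59481480 to 59483655), Gata2WT summits stood 267 bp upstream and 70, 829 and 1357 bp downstream, with values of 56.3, 61.7, 6.04 and 4.64, and the Gata2cKO interval held 1, at 78 bp downstream with 48.1. Smad3, which carries TGF-beta signals, was 2111 bp wide with 62.9% covered, and Dll1, a Notch ligand, was 2142 bp wide and met by 2 intervals that covered 83.2%. Over the 6 signalling members the median ratio of widths was 0.857 and 1 was divided. The 7 developmental factors had a median of 0.997 with 1 divided, beside 0.94 over all members.

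Other members had nearly the same extent in both lists. Foxo1 was covered to 96.3% with 4 summits in each, Foxo3 to 100% with 3 in each, and Tbl1x to 98.9%, with widths of 2937 and 2928 bp. Kdm6a, an X-linked gene on the segment from 18161658 to 18163762, had 3 summits in each list, at 377 and 63 bp upstream and 772 bp downstream in Gata2WT and at 422 and 33 bp upstream and 902 bp downstream in Gata2cKO. Their values were 81.4, 115 and 13.3 in Gata2WT and 61.5, 54.2 and 8.81 in Gata2cKO. Usp9x, a deubiquitinase, was covered to 96.7% and Hmga1 to 99.8%.

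The members from lists of general cell functions were also mostly alike in extent. Hsp90ab1, a cytosolic chaperone, was 2035 and 2009 bp wide, and Hmga2 2184 and 2095 bp. The cyclin gene Ccne2 was 1905 and 1776 bp wide, the cell cycle inhibitor gene Cdkn2c 1836 and 1776 bp, and the kinase gene Cdk6, with a low −log10 q of 11.5 in both lists, 1843 and 1304 bp. Eif4e, the cap-binding factor of translation, was 1928 bp wide and met by 2 Gata2cKO intervals that covered 86.8%.

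Members with 5 summits outside the widest 12 included low and high intervals. Ntn1, a netrin guidance ligand, was 2324 bp wide with a highest −log10 q of 13.2 in Gata2WT, and 2497 bp with 11.0 in Gata2cKO, where it held 4 summits. Sox3 had values of 10.6 and 6.43 and held 5 and 2 summits. Fzd10 had 41.9 and 56.4 with 5 and 4 summits, and Sema6c 21.5 and 12.3 with 5 and 6.

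Foxl2, on chromosome 9 (98954800 to 98957317), was a low and very wide interval in both lists. Gata2WT summits stood 568 bp upstream and 76 and 1364 bp downstream of the start, with −log10 q of 13.4, 11.5 and 6.33. Gata2cKO summits stood 559 bp upstream and 181, 851 and 1356 bp downstream, with 6.80, 11.0, 3.67 and 7.40. The widths were 2518 and 2550 bp, and 99.1% was covered.

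Cxcr4, on chromosome 1 (128591097 to 128593531), was 2435 bp wide in Gata2WT and 2279 bp in Gata2cKO. Its 3 Gata2WT summits had values of 11.9 at 914 bp upstream, 13.8 at 16 bp downstream and 6.98 at 816 bp downstream, and the Gata2cKO interval held 5. Sox17 was 1833 and 1963 bp wide, and Mycn 2191 and 2185 bp. These 3 members thus had nearly equal widths in both lists.

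The 6 members with the largest ratio of Gata2cKO to Gata2WT width ranged from 1.10 to 1.14. Lypd1 was 1812 and 2060 bp wide, Lrrc4, a synaptic adhesion protein, 1847 and 2093 bp, and Rps6ka3, the kinase RSK2, 2321 and 2624 bp. Hcfc1, a chromatin cofactor, was 1980 and 2179 bp, Bad 1868 and 2051 bp, and Slc9a2, a sodium-proton exchanger, 1859 and 2040 bp. The Gata2cKO interval of Lypd1 held 3 summits where the Gata2WT interval held 1.

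Summits of the 2 lists often lay close to each other. The Gata2cKO intervals at the members held 910 summits against 926, with the same number at 135 members, fewer at 87 and more at 76. Of the 926 Gata2WT summits, 630 (68.0%) had a Gata2cKO summit within 100 bp and 791 (85.4%) within 250 bp. Of the 910 Gata2cKO summits, 635 (69.8%) and 795 (87.4%) had a Gata2WT summit within these distances. The highest summits of the 2 lists lay within 100 bp of each other at 212 members (71.1%) and within 250 bp at 243 (81.5%). Neighbouring Gata2WT summits lay a median of 525 bp apart, so many positions in a member are within 250 bp of some summit. The share for positions taken at random was not computed, so these shares are a description.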

How the data were processed

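Accessible chromatin was measured by ATAC-seq in 2 Gata2WT and 2 Gata2cKO samples, with genotypes as labelled. Peaks were called by the authors with MACS2 2.2.6 on GRCm38 (mm10), per the submitters' processing notes, which also name bedtools 2.29.2, Picard 2.23.0, SAMtools, Trimmomatic 0.39 and Bowtie2 2.3.5.1. Parameters, any Tn5 shift and the way replicates were merged into the 1 combined list of each genotype are unknown (not given in the sources used here). Values the authors deposited for each peak were a score, the fold enrichment of the summit (a ratio to its local background), and the −log10 p-value and −log10 q-value. These values were not scaled between the lists. Depth per sample was not analysed here.

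Entries sharing start and end were collapsed to intervals (58357 entries in Gata2WT and 52236 in Gata2cKO on autosomes and X), and the highest summit gave an interval its values. Pileup and local background were solved from fold and p, and the pileup was whole within 0.001 of −log10 p for 99.995% and 99.994% of entries. Gene ends came from the RefSeq gene table, and strands and starts from the promoter table, which held 221 of the 298 member genes. Overlap meant at least 1 bp. A share has a 95% Wilson interval where one is given. Python 3.11.15, numpy 2.4.6, scipy 1.17.1, pandas 2.3.3 and matplotlib 3.10.9 were used. The solving of pileups was tested on shuffled Gata2WT values with known answers, and the search for overlaps on random intervals. The other steps were not tested in this way.

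The members and the 21 gene lists (693 entries, all found, 3 under an older symbol) were chosen with earlier results of these data known. Named genes were the 12 widest members, the 6 others with the most summits, the 6 with the most Gata2cKO intervals, the 6 with the smallest cover, the 6 with the largest ratio of widths, up to 3 members per list and 3 on each side of the width threshold. Some genes that this rule takes are not reported here. Other genes named were members of a list or family, or are said to have been chosen after their values were seen. Alternatives covered width, gene-end window, gene type, overlap, Gata2cKO threshold, list length, summit counting, the definition of a start and the motif background.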

Additional observations from a re-analysis of the deposited data

Results flagged for a closer look

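Intervals on the Y chromosome stood outside the measurements above, which used autosomes and X. Although the labels give all embryos as female, the Gata2WT list held 6 intervals on Y and the Gata2cKO list held 4. Their origin was not tested.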

How the results depend on the processing

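No paired analysis was possible because each genotype has 1 combined peak list and no result comes from a test; for the same reason no replicate could be left out. The number of members was 943 at a minimum width of 1500 bp and 86 at 2100 bp, and 290, 305 and 245 with a window of 500 bp, a window of 2 kb and exactly 1 gene of any type. The share divided was 9.12% at 1500 bp, 29.1% at 2100 bp and 11.7% with Gata2cKO entries limited to a −log10 q of at least 5; equal list lengths gave 17.1%, an overlap of at least 50% gave 16.1%, and closed gaps 13.4%. With that limit 98.7% of members were overlapped. The median summit number was 4 at 2100 bp. The share with a start was 89.1% where the interval had to hold the start itself. The median cover (92.1 to 93.7%) and ratio of widths (0.929 to 0.947) moved little under the alternatives run. Depth limits what a missing stretch shows: it fell short of the authors' threshold in a list and need not have been closed.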

Other observations

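Members on X were 17 of 298 (5.70%, Wilson 3.59 to 8.94%), against 3.41% of all Gata2WT intervals at exactly 1 coding gene end. They included Tbl1x, Usp9x, Rps6ka3, Sox3, Kdm6a, Hcfc1 and Hs6st2. Among the 214 wide Gata2cKO intervals, 12 (5.61%) lay on X.

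At 5 members, named after their values were seen, the whole width carried 1 summit in Gata2WT. Ptprk, a receptor tyrosine phosphatase, was 2224 bp wide with a −log10 q of 65.1, Fads2, a fatty acid desaturase, 1930 bp with 70.4, Setd7, a lysine methyltransferase, 1895 bp with 42.3, Wee1, a kinase that holds back mitosis, 1829 bp with 79.3, and Lypd1 1812 bp with 24.5. Each was met by 1 Gata2cKO interval, of 1748, 1839, 1788, 1653 and 2060 bp.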
